A study of Mus musculus with 18 samples.

Results

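The plasminogen activators and the serpins linked to them are represented here by 5 genes out of 49184 summed in the mouse cartilage libraries: Plau, Plat, Plaur, Serpine2 and Serpinf1. They were named as a group by their roles, with earlier results of these data known, and not by a threshold on their values. Plau encodes urokinase and Plat encodes tissue plasminogen activator, the secreted proteases that cut plasminogen into plasmin. Plaur encodes the urokinase receptor, which a lipid anchor holds on the cell surface. Serpine2 encodes protease nexin-1, which inhibits urokinase, tissue plasminogen activator and thrombin. Serpinf1 encodes pigment epithelium-derived factor, a serpin by sequence that does not inhibit proteases, so the word inhibitor fits it by family only.

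Plasmin dissolves fibrin, and in joint tissues it can also cleave matrix glycoproteins and activate latent metalloproteinases and growth factors. Its formation is set by the activators, by the receptors that gather plasminogen and urokinase at the cell surface, and by serpins that trap the activators. Pigment epithelium-derived factor is known for its anti-angiogenic action and for its expression in cartilage and bone.

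RNA of knee cartilage was measured in 18 libraries from 12-week-old male C57bl6 mice. In injured mice a single 12 N load had ruptured the anterior cruciate ligament (ACL) of the right knee, and the groups comprised 3 injured (right knee) and 3 contralateral (left knee) libraries at day 1, 3 injured and 3 contralateral libraries at day 7, and 6 libraries of naive mice that received no load and are labelled day 7, so that day 1 libraries were compared with naive knees of the later day. Each library was a pool of femoral cartilage, taken down to the tidemark. The series text gives 4 mice for each. By the methods of the study it was 2 mice per library at day 1, 4 at day 7 and 2 knees of the 6 naive mice. The naive libraries therefore share mice, and libraries were treated as independent. A library totalled between 16074762 and 41794005 estimated counts, with a median of 25465706.

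The tissue is labelled cartilage and the cell type chondrocyte. Each of the 13 chondrocyte markers examined, led by Col2a1, had counts, but so had markers of other cells. The erythroid list summed to between 30796 and 41287 CPM (counts scaled by the size of the library) in the naive libraries and to 23390 (median) in the day 7 injured libraries. Day 7 contralateral replicate 1 stood apart, since its 10 most abundant genes took 42.5% of its counts against 16.6% to 29.8% in the others, and the calls against its group that are lost without it are given with their values. In bulk libraries fewer cells of a type and less RNA per cell cannot be told apart.

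Promoter sequence was at hand for 3 of the 5 genes, not for Plau or Plat, in RefSeq (GRCm38.p6), and the 250 bases before the start site are shown because Serpinf1 and Serpine2 were called higher after injury and Plaur was not. Capitals mark TGANTCA, the AP-1 motif, which was searched on both strands together with TATAAA, the TATA box.
Serpinf1: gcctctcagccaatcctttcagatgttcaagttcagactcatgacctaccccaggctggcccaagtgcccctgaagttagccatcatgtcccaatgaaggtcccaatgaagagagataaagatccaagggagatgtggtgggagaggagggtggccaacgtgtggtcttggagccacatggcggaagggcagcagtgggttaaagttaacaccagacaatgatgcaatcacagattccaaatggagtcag
Serpine2: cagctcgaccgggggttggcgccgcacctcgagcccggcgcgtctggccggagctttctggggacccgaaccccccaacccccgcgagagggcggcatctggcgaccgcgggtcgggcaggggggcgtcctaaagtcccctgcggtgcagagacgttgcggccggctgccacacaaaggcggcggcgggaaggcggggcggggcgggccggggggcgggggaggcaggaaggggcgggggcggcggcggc
Plaur: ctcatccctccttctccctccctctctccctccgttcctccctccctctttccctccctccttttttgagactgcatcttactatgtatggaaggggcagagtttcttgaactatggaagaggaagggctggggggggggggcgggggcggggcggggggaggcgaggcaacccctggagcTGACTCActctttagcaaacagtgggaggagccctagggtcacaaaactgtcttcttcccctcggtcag
The stretches end at the RefSeq start, which is not the GENCODE start for each gene. The Serpinf1 stretch lies on the minus strand at chr11:75422624-75422873, that of Serpine2 on the minus strand at chr1:79858666-79858915 and that of Plaur on the plus strand at chr7:24462233-24462482. The Plaur promoter held TGACTCA, with its leftmost base at position -69 from the start, and neither of the others held the AP-1 letters. Among 32851 promoters of the same length 6.75% held TGANTCA and 12.37% held TATAAA, and none of the 3 held TATAAA. The GC content was 51.6% for Serpinf1, 78.8% for Serpine2 and 59.6% for Plaur, beside a median of 52.4% over the promoters.

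The genes lie apart from one another, and none overlaps another annotated gene in GENCODE (GRCm38). Plau (ENSMUSG00000021822) is on chromosome 14 from 20836660 to 20843385, plus strand. Plat (ENSMUSG00000031538) is on chromosome 8 from 22757727 to 22782844, plus strand. Plaur (ENSMUSG00000046223) is on chromosome 7 from 24462484 to 24475968, plus strand. Serpine2 (ENSMUSG00000026249) is on chromosome 1 from 79794197 to 79861180, minus strand, and Serpinf1 (ENSMUSG00000000753) is on chromosome 11 from 75409769 to 75422701, minus strand. The Serpine2 stretch printed above therefore lies wholly inside the GENCODE gene, downstream of its outermost start, and the Serpinf1 stretch overlaps the beginning of its gene.

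Each gene was present in each library. In TPM, the deposited measure of transcripts that accounts for their length, naive cartilage had 68.2 ± 9.08 TPM of Serpine2, 51.8 ± 12.1 of Serpinf1, 18.5 ± 3.30 of Plaur, 7.14 ± 3.06 of Plau and 1.70 ± 0.583 of Plat (SD, n = 6). Serpine2 was above Plau and Plat together in each library, by a ratio of TPM between 3.60 and 12.5. The lowest ratios, 3.60 in day 1 contralateral replicate 3, 3.75 in naive replicate 5 and 4.70 in day 1 injured replicate 2, belong to the 3 libraries highest in Plau. The 3 day 7 injured libraries followed with 5.72, 7.12 and 6.47, while the day 7 contralateral libraries had 9.73, 10.4 and 12.5. The naive libraries had 3.75 to 10.84 and the day 1 injured libraries 4.70 to 9.145, so the day 7 injured ratios lay within the naive range.

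Plat and Serpinf1 were higher in day 7 injured cartilage than in naive cartilage, by 3.24-fold and 3.12-fold. In CPM normalized by TMM no other library of the series reached the lowest day 7 injured value of either gene. The share of all genes that separate in this way was not counted, so the separation cannot be called particular to them. Serpine2 was 1.503-fold higher than in naive cartilage, at the very limit of the call, and neither Plau nor Plaur passed the test. Calls required an adjusted p (FDR) up to 0.05 and a difference of 1.5-fold or more in edgeR's quasi-likelihood test, by which 3 of the 5 genes were called higher, beside 10.4% of the 21129 genes tested (2207). A further 6.11% of genes were called lower, and none of the 5 was among them. The plot of CPM by library shows the 5 genes side by side, on a scale normalized by TMM over the 18 libraries.

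**Figure D1:**
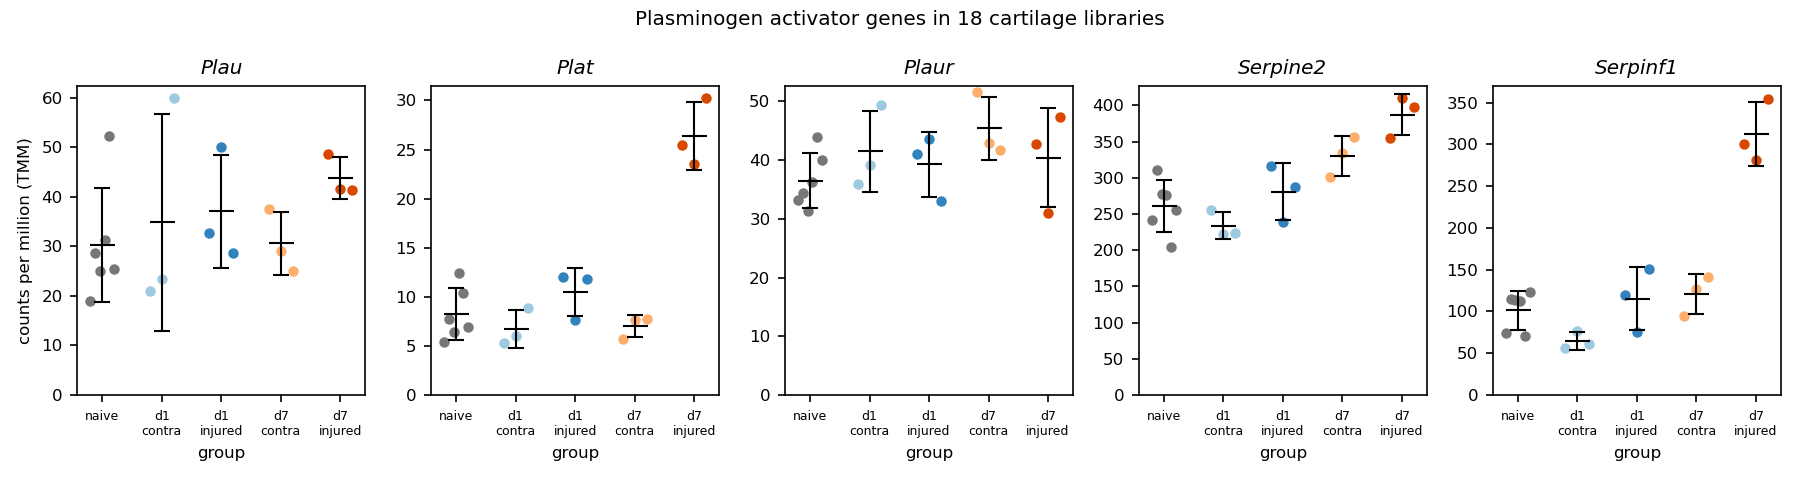
CPM of each gene (vertical axis, from 0) in the 5 groups (horizontal axis, d1 and d7 for days 1 and 7, contra for contralateral). Points are libraries, and bars show the mean and SD. In day 7 injured libraries Plat lies between 23.5 and 30.2 CPM and Serpinf1 between 281 and 355, above the libraries of the other groups, while Plau and Plaur overlap with them.

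Plat, the tissue-type activator, had the lowest level of the 5 genes. Its values were 5.38 (lowest), 7.33 (median) and 12.5 CPM (highest) in the naive libraries. At day 1 the contralateral libraries had 5.26, 6.03 and 8.88 CPM and the injured libraries 12.1, 7.63 and 11.8 CPM. These groups overlapped with the naive libraries. The day 7 contralateral libraries had 5.69, 7.67 and 7.70 CPM, and the day 7 injured libraries had 25.4, 23.5 and 30.2 CPM. The day 7 injured libraries thus lay apart from the 15 others, and the order of the 4 remaining group means, from day 1 injured (10.5 ± 2.48, SD, n = 3) through naive (8.22 ± 2.67, n = 6) and day 7 contralateral (7.02 ± 1.15, n = 3) to day 1 contralateral (6.72 ± 1.90, n = 3), runs over neighbours whose values overlap.

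The fitted differences of Plat were 3.24-fold against naive (95% interval 2.29 to 4.57, FDR 6.26e-05), 3.73-fold against day 7 contralateral (2.47 to 5.64, FDR 1.20e-04) and 2.55-fold against day 1 injured (1.68 to 3.87, FDR 0.00308). Without day 7 contralateral replicate 1 the log2 difference from the contralateral libraries was 1.80 in place of 1.90 (FDR 8.56e-04). The counts behind these values are low. Plat had 109 to 356 estimated counts in a naive library and 371, 560 or 653 in a day 7 injured library.

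Serpinf1, the gene of pigment epithelium-derived factor, had 70.4 (lowest), 113 (median) and 123 CPM (highest) in the naive libraries. At day 1 it had 56.3, 76.3 and 61.6 CPM in the contralateral and 120, 75.3 and 151 CPM in the injured libraries. The day 1 contralateral libraries were low, with a mean of 64.7 ± 10.4 CPM against 101.4 ± 23.1 in naive libraries, though the groups overlapped. At day 7 the contralateral libraries had 95.1, 127 and 141 CPM and the injured libraries 301, 281 and 355 CPM. From the highest, the group means followed as day 7 injured (312 ± 38.2), day 7 contralateral (121 ± 23.5), day 1 injured (115 ± 37.9), naive and day 1 contralateral, and neighbours below the day 7 injured group overlapped.

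Serpinf1 was 3.12-fold higher at day 7 after injury than in naive cartilage (2.32 to 4.195, FDR 1.95e-05). It was 2.58-fold higher than in day 7 contralateral cartilage (1.80 to 3.71, FDR 7.36e-04) and 2.75-fold higher than at day 1 after injury (1.91 to 3.95, FDR 6.38e-04). Without day 7 contralateral replicate 1 the log2 difference from contralateral libraries was 1.24 in place of 1.37 (FDR 0.00408).

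Serpine2, the gene of protease nexin-1, had the highest CPM and TPM of the 5 in naive cartilage, with 205 (lowest), 266 (median) and 311 CPM (highest). The day 1 contralateral libraries had 255, 223 and 224 CPM and the day 1 injured libraries 317, 239 and 288 CPM. The day 7 contralateral libraries had 301, 334 and 356 CPM and the day 7 injured libraries 355, 410 and 397 CPM. Both knees of the injured mice at day 7 thus lay toward the top of the range, and the contralateral and injured libraries overlapped.

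The Serpine2 difference between day 7 injured and naive libraries was 1.503-fold (1.27 to 1.78, FDR 0.00128), and its libraries did not overlap. The limit of 1.5-fold cuts through this value, and the call was lost without naive replicate 1, 5 or 6 or day 7 injured replicate 2 or 3, at log2 differences down to 0.52. Against day 7 contralateral the difference was 1.17-fold (0.958 to 1.43, FDR 0.275). Against day 1 injured it was 1.40-fold (1.14 to 1.70, FDR 0.0181), a difference that passed the FDR, as 16.2% of genes did in that direction, but stayed under the fold limit. Day 7 contralateral libraries were 1.26-fold above naive (1.06 to 1.503, FDR 0.248).

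Plau, the urokinase gene, had 19.0 (lowest), 27.0 (median) and 52.3 CPM (highest) in the naive libraries. It had 21.1, 23.4 and 60.02 CPM in the day 1 contralateral, 32.6, 50.1 and 28.6 CPM in the day 1 injured and 37.6, 29.2 and 25.1 CPM in the day 7 contralateral libraries. In the day 7 injured libraries it had 48.6, 41.5 and 41.3 CPM. These lay above the contralateral libraries of the same day but below naive replicate 5, day 1 contralateral replicate 3 and day 1 injured replicate 2. The fitted difference was 1.46-fold against naive (0.902 to 2.37, FDR 0.222), 1.44-fold against day 7 contralateral (0.839 to 2.46, FDR 0.362) and 1.19-fold against day 1 injured (0.679 to 2.10, FDR 0.654). Without naive replicate 5 the log2 difference from naive was 0.77 in place of 0.55 (FDR 0.0574).

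Plaur, the urokinase receptor gene, had no called difference. Its values were 31.3 (lowest), 35.3 (median) and 43.9 CPM (highest) in naive libraries, 36.0, 39.2 and 49.3 in day 1 contralateral and 41.0, 43.6 and 33.1 in day 1 injured libraries. At day 7 the contralateral libraries had 51.6, 42.9 and 41.7 CPM and the injured libraries 42.7, 31.0 and 47.4 CPM. In CPM every group overlapped with every other, which was not so in TPM. The difference between day 7 injured and naive libraries was 1.12-fold (0.903 to 1.39, FDR 0.419) and against day 7 contralateral it was 0.892-fold (0.699 to 1.14, FDR 0.550). Its sign changed with the scaling, since on library totals alone the log2 difference from naive was -0.15.

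The contralateral knees were the left knees of injured mice, so day 7 injured against day 7 contralateral sets the injured limb against the other limb, although the labels do not say which libraries share mice. Plat and Serpinf1 were called higher, 2 of 5 beside 9.33% of the 21262 genes tested, and 3.23% of genes were called lower, none of them among the 5. Against day 1 injured, which addresses the course after injury, the same 2 genes were called higher beside 9.04% of genes. These comparisons share the day 7 injured libraries with that against naive.

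**Figure D2:**
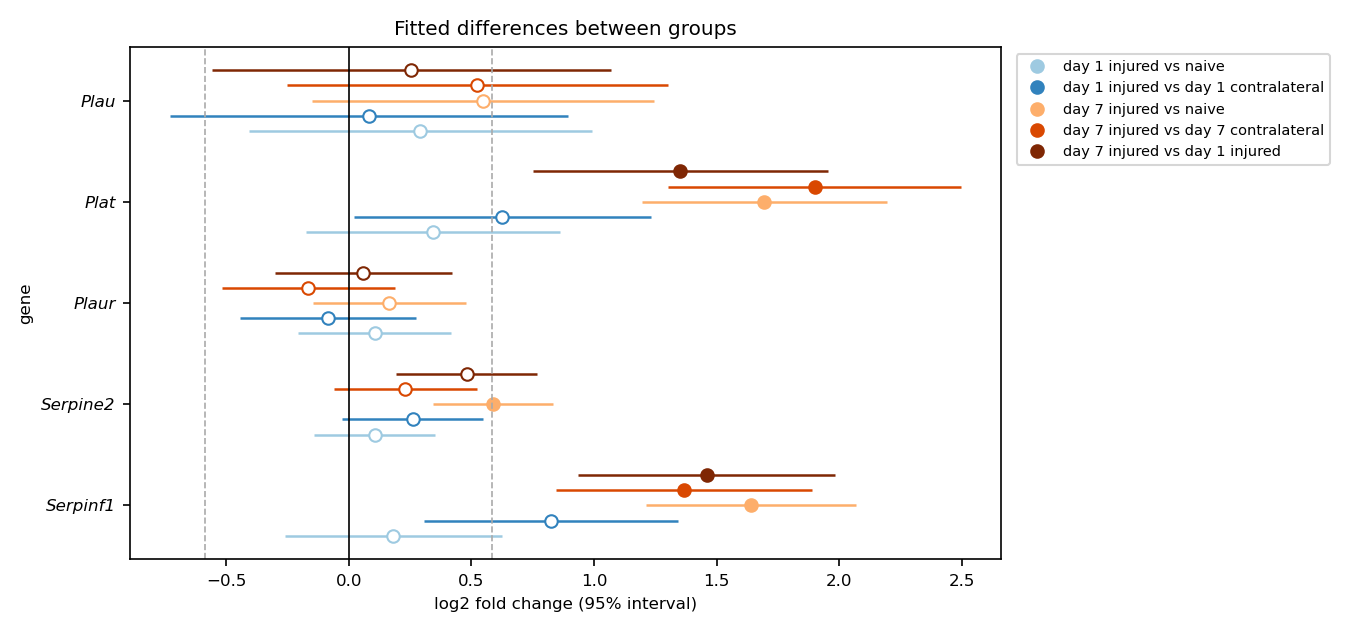
Fitted log2 fold change (horizontal axis) of each gene (vertical axis) in 5 comparisons, with 95% intervals. Filled points passed the call and open points did not, and dashed lines mark 1.5-fold. The 3 day 7 comparisons of Plat and Serpinf1 are filled, and Serpine2 sits on the line in the comparison with naive.

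At day 1 no gene of the 5 was called. Injured against naive libraries gave 0 of 21129 genes (0%) by edgeR, with 959 of them at an unadjusted p under 0.05, and DESeq2 called 15. Where no gene differs, a share of about 0.05 of the genes tested would have such a p. The log2 differences of the 5 genes lay between 0.11 for Plaur and 0.34 for Plat (FDR at least 0.987). Injured against contralateral libraries of day 1 again gave 0 genes by edgeR, with 1383 at an unadjusted p under 0.05 and 0 by DESeq2. There Serpinf1 was 1.77-fold (1.24 to 2.54, FDR 0.755) and Plat 1.54-fold (1.015 to 2.35, FDR 0.755), each with groups that overlapped in CPM but not in TPM.

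The contralateral limbs were also compared with naive knees, which asks whether the uninjured limb can serve as a control. Day 1 contralateral against naive gave 0 calls by edgeR, 554 of 21129 genes at an unadjusted p under 0.05 and 2 calls by DESeq2. Serpinf1 was 0.639-fold there (0.465 to 0.879, FDR 1.00). Day 7 contralateral against naive gave 0 calls by edgeR, 3220 of 21262 genes at an unadjusted p under 0.05 and 31 calls by DESeq2. None of the 5 genes was among these 31. The limma-voom fit also called no gene in these 4 comparisons.

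The change of the injury effect between the days was tested as the difference of the injured against contralateral contrasts. It was 2.41-fold for Plat (1.36 to 4.26, FDR 0.0837), which did not pass, while 3.53% of genes were called higher. In DESeq2 Plat passed (FDR 0.0328), beside 4.6% of genes. Serpinf1 had 1.45-fold (0.876 to 2.40, FDR 0.477), Plau 1.35-fold (0.635 to 2.88), Plaur 0.943-fold (0.669 to 1.33) and Serpine2 0.976-fold (0.734 to 1.30). A larger injury effect at day 7 than at day 1 was therefore not shown for any of the 5 by the edgeR test.

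On the deposited TPM scale, which divides by the whole library with no further normalization, other groups overlapped. Of the 10 pairs of groups, those without overlap were 4 in CPM and 5 in TPM for Plat, 5 and 4 for Serpinf1, 4 and 1 for Serpine2, 1 and 2 for Plau and 0 and 4 for Plaur. Such pairs were not counted over all genes. Plat had 3.79, 4.18 and 5.94 TPM in the day 7 injured libraries, and day 1 injured replicate 3, at 4.27 TPM, fell within that range. Serpinf1 had 119.4, 114 and 149 TPM, and day 1 injured replicate 3 had 137 TPM. Against the naive libraries alone, Plat and Serpinf1 of the day 7 injured libraries were higher without overlap on this scale too.

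The day 1 injured libraries were high in TPM for the other genes. Plaur had 27.4, 30.1 and 31.9 TPM in them, above the naive libraries (13.8 to 23.6) and above the day 7 injured libraries (13.3, 11.8 and 19.2 TPM), which overlapped with naive. Serpine2 had 105.4, 88.2 and 146 TPM at day 1 after injury, above the naive range of 57.8 to 84.6 TPM, and 67.6, 86.9 and 95.3 TPM in day 7 injured libraries, which overlapped with that range. Plau had 9.74, 16.6 and 11.7 TPM in day 1 injured libraries, above the 8.01, 8.03 and 8.78 TPM of the day 7 injured libraries. The day 1 injured libraries also lay above the day 1 contralateral libraries in TPM for Plat, Serpinf1 and Plaur, at 2.18 to 4.27 against 1.48 to 2.09 TPM for Plat, 50.2 to 137 against 36.3 to 49.0 TPM for Serpinf1 and 27.4 to 31.9 against 23.0 to 26.4 TPM for Plaur. In CPM each of these pairs of groups that lay apart in TPM overlapped.

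The makeup of the transcripts of a gene differed as well, a feature chosen after its values were seen and given without a test. How common such differences are among all genes was not examined. Plat has 3 annotated transcripts in the files, of which Plat-202 retains an intron. Its share of the Plat counts was 6.03% (lowest), 12.6% (median) and 16.7% (highest) in naive libraries and 3.68%, 1.24% and 2.33% in day 7 injured libraries. The shares of the other groups lay between 6.16% and 13.1%, above the day 7 injured libraries. Behind them stood few counts, from 7.1 to 34.8 of Plat-202 in a naive library and 20.6, 4.6 and 15.2 in the day 7 injured libraries.

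Plaur has 6 annotated transcripts, of which 1 is coding, Plaur-201. Coding counts were 68.5 ± 4.38% of the total in naive libraries (SD, n = 6), 69.5 ± 5.93% and 68.0 ± 3.05% in day 1 contralateral and injured libraries and 68.4 ± 4.10% in day 7 contralateral libraries (n = 3 each). In day 7 injured libraries the share was 75.0%, 84.7% and 83.5%, above the highest share elsewhere, 74.0%. Plau was almost wholly coding, with a lowest share of 97.55% in a library, and so was Serpine2, with a lowest share of 97.9%. The small retained-intron share of Serpine2 was also lower, at 1.11% to 2.04% in naive and 0.544% to 0.947% in day 7 injured libraries. Day 7 contralateral libraries, at 0.636% to 1.34%, overlapped with the latter. For Serpinf1 this share was 0.397% to 1.41% in naive and 0.207% to 1.00% in day 7 injured libraries, with overlap. Serpinf1 had 64.2 ± 4.30% coding counts in naive and 60.2 ± 3.80% in day 7 injured libraries, and its 2 transcripts marked for nonsense-mediated decay took most of the rest.

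**Figure D3:**
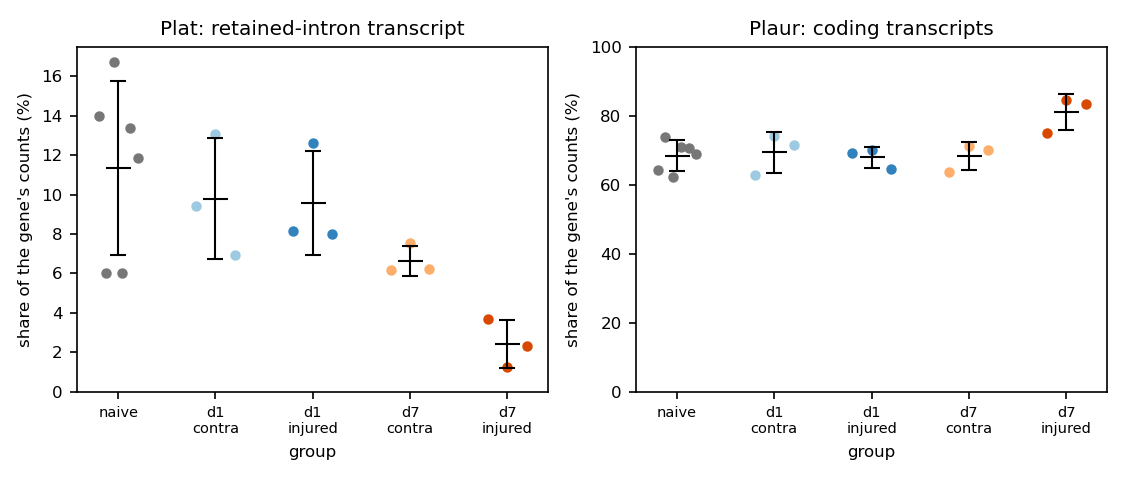
Share of the gene's estimated counts (vertical axis, percent) held by the retained-intron transcript of Plat (left) and by the coding transcript of Plaur (right) in the 5 groups. Points are libraries, and bars show the mean and SD. The day 7 injured libraries have 1.24% to 3.68% for Plat, below the others, and 75.0% to 84.7% for Plaur, above the others.

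The genes were not all alike in how they varied over the 18 libraries. The closest genes to each were ranked by Pearson's r of log2 CPM among 15987 others, a description over libraries that share groups. For Plat they were Wwtr1 (r = 0.966), which encodes the Hippo pathway cofactor TAZ, Pxdn (0.965), the peroxidase that crosslinks collagen IV, and Bicc1 (0.963). For Serpinf1 they were Sparc (0.971), which encodes osteonectin, Cdh11 (0.967), the cadherin of synovial fibroblasts and osteoblasts, and Fam198b (0.965). Serpine2 was closest to Tanc1 (0.933), Antxr2 (0.921) and Dgki (0.916), and Plaur to Spata2 (0.822), Arpc1b (0.811) and Krt80 (0.797). Between members Pearson's r was 0.870 for Serpine2 and Serpinf1, 0.843 for Plat and Serpinf1, 0.570 for Plau and Plaur and -0.071 for Plaur and Serpine2. Without the day 7 injured libraries these values were 0.773, 0.399, 0.691 and -0.0898.

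Plau was closest to Cd14 (0.943), the lipopolysaccharide co-receptor, Fam129b (0.927) and Timp1 (0.924), the secreted metalloproteinase inhibitor. Timp1 fell into separate levels. It had 87.7 CPM in day 1 injured replicate 2, 93.8 in day 1 contralateral replicate 3, 94.1 in naive replicate 5 and 59.1, 59.3 and 83.3 CPM in the day 7 injured libraries, but 5.26 to 15.3 CPM in the 12 others. The 3 libraries outside the day 7 injured group that had the highest Plau were the same that had the highest Timp1. Timp1 was picked for its correlation with Plau over these same libraries, so the match follows in part from that choice. The plot of Timp1 and Plat against Plau shows these libraries apart for Timp1.

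**Figure D4:**
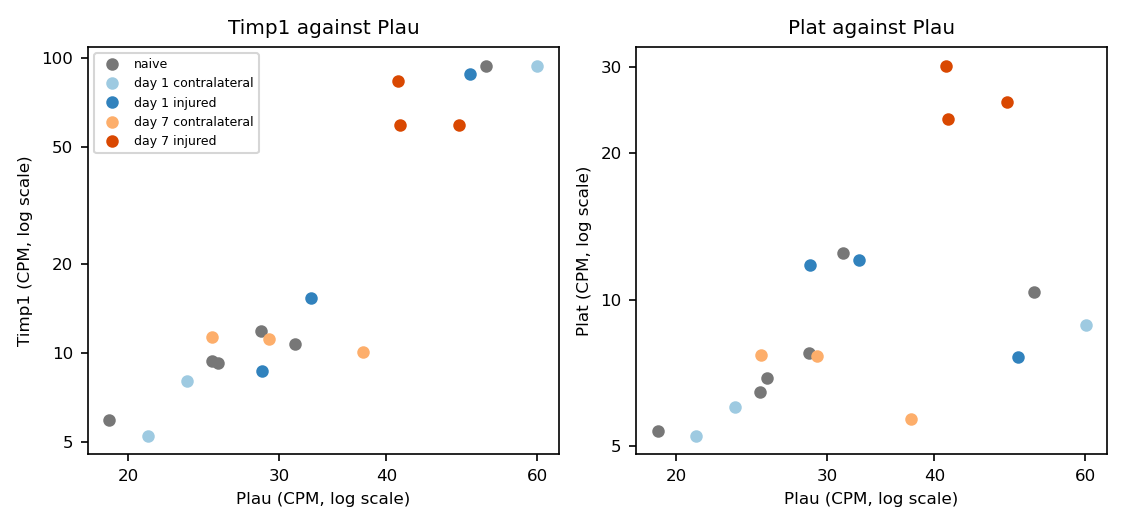
CPM of Timp1 and Plat (vertical axes, log scale) against CPM of Plau (horizontal axes, log scale), with 1 point per library coloured by group. For Timp1 a naive, a day 1 contralateral and a day 1 injured library lie with the day 7 injured libraries, at 87.7 to 94.1 CPM of Timp1, whereas for Plat they do not.

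The 3 libraries did not share the high Plat of the day 7 injured group, at 10.3, 8.88 and 7.63 CPM, nor its high Serpinf1, at 70.4, 61.6 and 75.3 CPM. They were low in adipocyte markers, a list led by Cfd, which summed to 228, 242 and 184 CPM in them and to 210, 255 and 166 CPM in the day 7 injured libraries, against 391 to 806 CPM in the 12 others. Skeletal muscle markers, led by Myh4, summed to 2967, 4265 and 3209 CPM in the 3 libraries and to 3799 to 11604 CPM in the 12 others. Prg4, the lubricin gene, was high at 1409, 1649 and 1775 CPM (240.5 to 892 in the 12 others), as was Spint1, which encodes a Kunitz-type protease inhibitor, at 2.94, 3.11 and 1.68 CPM (at most 0.420). Clic5, listed with the synovial markers, was low at 24.9, 22.9 and 24.1 CPM (49.02 to 124). These genes were picked after their values were seen. The whole list of synovial and other fibroblast markers, which includes Prg4 and Clic5, summed to 13391, 12357 and 15132 CPM (9383 to 57301 in the 12 others). The part of other tissues in these values was not tested.

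When the 3 libraries were left out together, an alternative chosen after seeing the values of Plau, the log2 differences of the day 7 injured libraries from naive were 0.76 for Plau, 1.75 for Plat, 1.54 for Serpinf1, 0.51 for Serpine2, which was then not called, and 0.21 for Plaur. Plau then lay past both limits of the call, but its value is a description and no test, since this gene took part in the choice of the libraries.

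The rest of the system was followed with 46 further genes in 9 lists, of which 37 passed the filter on low counts. Against naive, 15 of the 37 were called higher and 3 lower at day 7 after injury, beside 10.4% and 6.11% of all genes tested. Against day 7 contralateral it was 15 higher and 3 lower, beside 9.33% and 3.23%, and against day 1 injured 15 higher and 0 lower, beside 9.04% and 6.38%. Not all of these calls held. Leaving out a single library could end 4 of the 18 against naive, 6 of the 18 against contralateral and 4 of the 15 against day 1 injured (Itgav, Lrp1, Plxdc1 and Pdgfd). Scaling by library totals alone ended 5, 4 and 10. The median log2 difference over all genes tested against naive was -0.04, beside which the medians of the lists stand.

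**Figure D5:**
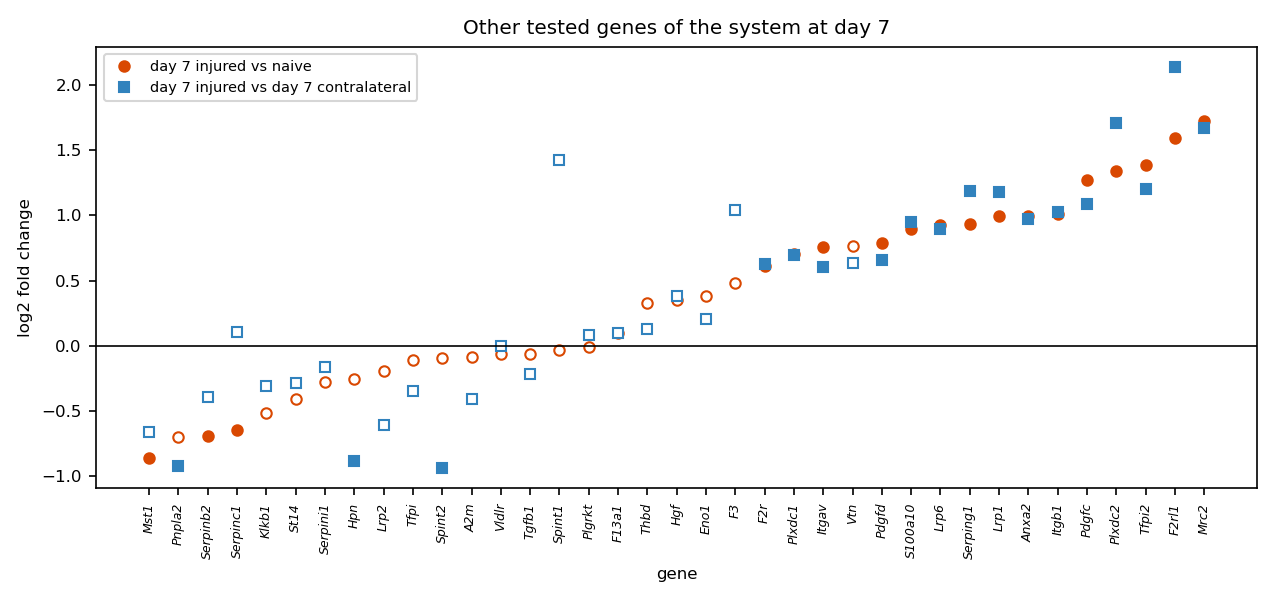
Log2 fold change (vertical axis) of the 37 tested genes of the wider system (horizontal axis, ordered by the comparison with naive) in day 7 injured libraries against naive (circles) and against day 7 contralateral (squares). Filled symbols passed the call. Mrc2 (1.73 and 1.67) and F2rl1 (1.59 and 2.14) are filled in both.

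Plasminogen itself, the substrate of the activators, was close to absent as RNA. Plg had at most 5 counts in a library and 30 in the 18 libraries together. Among the plasmin inhibitors and related genes, Serpinf2 (antiplasmin) had at most 13 counts and Cpb2, the fibrinolysis inhibitor, at most 2, while A2m, which was tested, had a log2 difference of -0.09 (FDR 0.666). The fibrinogen chain genes Fga and Fgg had at most 1 count and Fgb had 0 counts in the 18 libraries, and F2, the prothrombin gene, had at most 9. Protein was not measured, so low RNA does not show that these proteins were missing from the joint.

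The surface receptors that gather plasminogen gave 2 of 4 genes higher against naive, with a median log2 difference of 0.64. Anxa2 rose from 149 to 276 CPM in naive libraries to 389, 385 and 418 CPM (1.998-fold, FDR 2.67e-04). S100a10, its partner in the annexin A2 complex that binds tissue plasminogen activator, rose from 41.8 to 64.1 CPM to 83.8, 98.9 and 102 CPM (1.86-fold, FDR 2.40e-04), though on library totals its log2 difference of 0.58 was under the fold limit. The libraries of these 2 genes did not overlap between the groups. Plgrkt, a plasminogen receptor, had a log2 difference of -0.01 (FDR 0.939), and Eno1 one of 0.38 (FDR 0.0503).

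The partners and clearance receptors of the urokinase receptor gave 4 of 7 genes higher, with a median log2 difference of 0.77. Mrc2, which encodes the collagen endocytic receptor that associates with the urokinase receptor, had 80.1 to 111 CPM in naive and 281, 275 and 357 CPM in day 7 injured libraries (3.31-fold, FDR 1.38e-07). Lrp1, the receptor that clears complexes of activators with serpins, had 652 to 1239 CPM in naive and 1650, 1779 and 1943 CPM in day 7 injured libraries (1.997-fold, FDR 0.00226). The integrin genes Itgb1 (2.01-fold) and Itgav (1.69-fold) rose too, the latter not on library totals (log2 difference 0.44). Vtn, which encodes vitronectin, was 1.70-fold and did not pass (FDR 0.114).

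Of the other inhibitors of the activators, Serpinb2, the gene of plasminogen activator inhibitor 2, was lower, at 5.73 to 9.09 CPM in naive and 4.22, 5.01 and 4.26 CPM in day 7 injured libraries (log2 difference -0.70, FDR 0.0194). It was not called against day 7 contralateral (-0.39, FDR 0.320). Serpini1, the gene of neuroserpin, had -0.28 (FDR 0.341), and Serpina5 had at most 1 count in a library. Leaving out day 7 injured replicate 1 or 3 ended the Serpinb2 call. Of the 2 tested genes of this list reported here, 0 were called higher against naive and 1 lower, and the median log2 difference was -0.49.

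The thrombin and tissue factor genes gave 3 of 7 tested genes higher and 1 lower, with a median of 0.48. F2r, which encodes the thrombin receptor PAR1, was 1.53-fold higher, close to the fold limit, and its call was lost without naive replicate 4 or 5 or day 7 injured replicate 3, on library totals (log2 difference 0.30 in place of 0.61), with coding transcripts only (0.58) and without the 3 libraries high in Plau and Timp1 (0.57). F2rl1, which encodes PAR2, rose from 1.03 to 1.95 CPM in naive libraries to 3.04, 3.80 and 6.75 CPM (3.02-fold, FDR 9.24e-05). Tfpi2, a Kunitz-type inhibitor of plasmin, rose from 1.19 to 2.72 CPM to 5.27, 4.50 and 5.97 CPM (2.61-fold, FDR 2.26e-04). Serpinc1, the antithrombin gene, was lower (log2 difference -0.65, FDR 0.0243) but not against day 7 contralateral (0.10, FDR 0.842), and leaving out day 7 injured replicate 2 or using coding transcripts only (-0.56, FDR 0.622) ended the call.

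Among growth factors that urokinase or plasmin can activate, Pdgfc (2.42-fold, FDR 8.05e-05) and Pdgfd (1.73-fold, FDR 0.00194, not called on library totals at a log2 difference of 0.48) rose, Mst1 fell (log2 difference -0.86, FDR 0.0147), and Hgf had 1.28-fold (FDR 0.0341), under the fold limit. Mst1 had 1.68, 1.90 and 1.30 CPM in day 7 injured libraries, below the naive range of 2.45 to 4.10 CPM, and without day 7 injured replicate 3 its log2 difference was -0.72 and not called (FDR 0.0873). That made 2 of 5 higher and 1 lower, with a median of 0.35. Tgfb1 had a log2 difference of -0.07 (FDR 0.586).

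Receptors proposed for pigment epithelium-derived factor gave 3 of 4 higher, with a median of 0.82. Plxdc2 was 2.54-fold (FDR 2.95e-06), Lrp6 1.90-fold (FDR 3.77e-06) and Plxdc1 1.63-fold (FDR 0.00329) against naive, of which Plxdc1 was not called on library totals (log2 difference 0.40). Pnpla2, a triglyceride lipase, had a log2 difference of -0.70 (FDR 0.0635) and was called lower against day 7 contralateral (-0.92, FDR 0.0416). Its call was lost when any of 5 of the 6 libraries was left out, day 7 contralateral replicate 3 being the exception, and without day 7 contralateral replicate 1 it had -0.71. Limma-voom (-0.89, FDR 0.0667) and coding transcripts only (-0.57, FDR 0.159) also ended the call. Of the remaining secreted regulators, 1 of 6 tested was higher, Serping1, the C1 inhibitor gene (1.91-fold, FDR 0.00152), and the median was -0.18. The fibrin crosslinking gene F13a1 had a log2 difference of 0.10 (FDR 0.660).

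Against day 7 contralateral Hpn (-0.88) and Spint2 (-0.94) were called lower with overlapping groups. Without day 7 contralateral replicate 1 the log2 difference was -0.29 for Hpn and -0.31 for Spint2, and neither was called. The Hpn call was also lost without day 7 injured replicate 1 or 3, and that of Spint2 without day 7 injured replicate 2 or 3. Limma-voom ended both calls too (FDR 0.115 for Hpn and 0.106 for Spint2), as did a fit of the compared groups alone (FDR 0.221 and 0.204). Itgav, Pdgfd and F2r, called higher there at log2 differences of 0.61, 0.66 and 0.63, had 0.56, 0.64 and 0.57 without day 7 contralateral replicate 1 and were not called. Leaving out any of 3 other libraries also ended the call of Pdgfd, as did any of 2 others for Itgav and day 7 injured replicate 3 for F2r.

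The injury effect differed between the days for 6 of the 37 genes, all higher at day 7, beside 3.53% of all genes higher and 0.245% lower. They were Mrc2 (log2 1.26), F2rl1 (1.94), Itgb1 (0.96), Plxdc2 (1.45), Lrp6 (0.75) and S100a10 (0.89, FDR 0.0485). The S100a10 call was lost in 10 of the 12 fits with a library left out, that of Lrp6 in 3 and that of Plxdc2 without day 7 injured replicate 3. Without the 3 libraries high in Plau and Timp1 these 3 genes were not called (0.81, 0.63 and 1.37). On library totals alone Mrc2 was the 1 gene of the 6 still called, with F2rl1 at 1.72 (FDR 0.0533) and Itgb1 at 0.75 (FDR 0.117).

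Markers of other cells moved with these groups. Of 12 markers of synovial and other fibroblasts, 8 were higher at day 7 after injury than in naive libraries, and these counts stand beside 10.4% of all genes called higher and 6.11% lower. Their sum, most of it Col1a1, was 12272 (lowest), 16174 (median) and 19589 CPM (highest) in naive libraries, 9383, 10651 and 12357 in day 1 contralateral, 16833, 15132 and 23941 in day 1 injured, 57301, 18060 and 24708 in day 7 contralateral and 76313, 72976 and 84333 CPM in day 7 injured libraries. In the contralateral library with the high sum, replicate 1, Col1a1 gave 52440 of the 57301 CPM, and of the 12 markers 5 were the highest of the group there (Col1a1, Col3a1, Pdgfra, Pi16 and Thy1), 6 the lowest (Fap, Dcn, Lum, Prg4, Clic5 and Dpp4) and 1 in between (Pdgfrb). No marker of the list was at 0 in the 18 libraries.

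Chondrocyte markers, led by Col2a1, gave 4 of 13 higher, with sums of 4194 (lowest), 4938 (median) and 7779 CPM (highest) in naive and 7385, 8440 and 8264 CPM in day 7 injured libraries. Of 10 endothelial markers 5 were higher, and their sum, led by Vwf, was 536 to 630 CPM in naive and 692, 686 and 759 CPM in day 7 injured libraries. Vwf itself went the other way without a call, at 218 to 292 CPM in naive and 208, 188 and 190 CPM in day 7 injured libraries. Macrophage markers, led by Lyz2, gave 0 of 10 calls, with sums of 2203 to 2948 CPM and 2331 to 2871 CPM. Erythroid markers gave 4 of 7 lower, adipocyte markers 4 of 7 lower, neutrophil markers 2 of 9 lower and platelet markers 2 of 6 lower. Of the osteoblast list 1 of 9 was higher and 2 lower, of the osteoclast list 1 of 8 was higher, and the muscle and proliferation lists had no call. The part of these cells in the values of the 5 genes was not tested.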

How the data were processed

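The authors trimmed the paired reads, quantified them with Kallisto against mouse GRCm38 transcripts, and deposited estimated counts and TPM for each transcript (per the file headers). The submitters' processing notes name GRCh38, a human build. TPM as deposited by the authors were summed per gene. Of 137436 transcripts 135107 (98.31%) matched GENCODE, and the others, with 0.667% to 3.90% of a library's counts, were left out. Sums of estimated counts over 49184 genes were rounded. Genes were tested with edgeR 4.0.16 (quasi-likelihood test, TMM, its filter on low counts, Benjamini-Hochberg adjustment) on the 15 libraries outside the day 7 contralateral group, or on the 18 where that group was compared. The study used limma-voom with a correlation between libraries of a mouse pool, which the labels do not identify. Intervals are 95% intervals of the fit. Libraries were checked and none was a duplicate. Limma-voom 3.58.1 and DESeq2 1.42.0, other scalings, filters and left-out libraries were alternatives. Named genes are the 5 members, 46 genes in 9 lists (a further listed gene is not reported here) and the 3 genes of highest correlation for each member (mean of at least 1 CPM, log2 of CPM + 0.5), and those chosen after their values were seen are named as such. Members and lists were chosen with earlier results of these data known.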

Additional observations from a re-analysis of the deposited data

Results flagged for a closer look

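Within the 6 naive libraries, naive replicate 5 lay far above the others for 2 of 26 genes examined by the size of the gap to the nearest library, where chance alone would give about 1 in 20. It had 52.3 CPM of Plau, with 31.3 CPM in the next library, and 17.9 CPM of Pdgfc, with 13.9 CPM in the next. Groups of 3 libraries were not examined in this way.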

How the results depend on the processing

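Plat and Serpinf1 kept their calls in the 3 comparisons of day 7 injured libraries under each alternative run and with each library left out, with log2 differences from naive of 1.38 to 1.79 and 1.34 to 1.67 over the alternatives. The Serpine2 call against naive was lost in DESeq2 (0.58), with DESeq2 size factors (0.58), library totals (0.28), no filter (0.58), coding transcripts only (0.57), the 18 libraries in the fit (0.57), the compared groups alone (0.57) and without the 3 libraries high in Plau and Timp1 (0.51), where the FDR still passed and the fold did not. Library totals shifted the median log2 difference of all genes from -0.04 to -0.35 against naive and from -0.0021 to -0.45 against day 1 injured, and gave 5824 calls (1268 higher and 4556 lower) in place of 3498 and 6835 (793 higher and 6042 lower) in place of 3257, with 346 for the change of the injury effect in place of 802. On that scale Plaur turned to -0.15 against naive and -0.38 against day 1 injured, and Plau to -0.20 against day 1 injured and to -0.19 between day 7 contralateral and naive. With no fold limit 6291 genes passed against naive and 5160 against day 1 injured, and with an FDR of 0.01 it was 1895 against day 1 injured and 344 for the change of the injury effect. DESeq2 called 15 genes between day 1 injured and naive, 2 between day 1 contralateral and naive, 31 between day 7 contralateral and naive, and 1 of the 5 genes, Plat, for the change of the injury effect. Plaur also turned with a transcript length offset (-0.13 against day 1 injured) and with coding transcripts only (0.053 against day 7 contralateral and 0.17 for the change of the injury effect). Without the 3 libraries high in Plau and Timp1, an alternative chosen after seeing the data, Plau turned to -0.22 between day 1 contralateral and naive, and 3731 genes were called between day 7 injured and naive. Among the pathway genes called against naive, Plxdc1 (0.40), Itgav (0.44), Pdgfd (0.48), S100a10 (0.58) and F2r (0.30) were not called on library totals. On that scale 4 of 18 calls against day 7 contralateral, 10 of 15 against day 1 injured and 5 of 6 for the change of the injury effect were lost, and with a transcript length offset 5, 1 and 3. The causes were not tested.

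With single libraries left out, these differences, none of them called, changed sign. Against day 1 injured, Plaur at day 7 ranged from -0.067 to 0.22. Between day 1 injured and naive, Serpinf1 ranged from -0.054 to 0.42. Between day 1 injured and contralateral, Plau ranged from -0.19 to 0.74 and Plaur from -0.18 to 0.063. Between day 1 contralateral and naive, Plau ranged from -0.45 to 0.48, and between day 7 contralateral and naive Plau ranged from -0.17 to 0.24. For the change of the injury effect Plau ranged from -0.22 to 0.72, Plaur from -0.24 to 0.079 and Serpine2 from -0.14 to 0.053, and the genes called from 402 (without day 7 injured replicate 3) to 962 (without day 7 contralateral replicate 1).

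No paired analysis was possible because the labels do not say which libraries come from the same mice. The study removed a library with a low mapping rate without naming it. Of the 5 genes Plat had the lowest CPM, with 73 to 653 estimated counts in a library.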
